A study of Mus musculus with 10 samples.

Results

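Adss and 9 other genes of purine nucleotide synthesis were examined in mouse alveolar type II cells, which line the alveolus and make lung surfactant. The set was chosen by symbol and comprised Adss, Adsl, Ppat, Gart, Pfas, Paics, Atic, Impdh1, Impdh2 and Gmps. All 10 were among the 16154 genes of the deposited table, and all 10 passed the filter on low values that left 12946 genes for testing. Adss was selected because its level differed between knockout and wild type libraries in these data, so its difference is given as a description without a test. The other 9 were added because they act in the same pathway.

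The study compared 5 libraries labelled wild type (replicates 2 to 6) with 5 labelled HOIL-1L -/- (called knockout here, replicates 1 to 5), each from a separate mouse by its number in the title. All mice were C57BL/6, aged 8 to 10 weeks, and RNA came from sorted cells. HOIL-1L, encoded by Rbck1, is a subunit of the complex that assembles linear ubiquitin chains. The design text describes the knockout as CreSPC/HOIL-1Lfl/fl, in which Cre driven from the surfactant protein C promoter would act on a floxed allele, whereas the genotype label names no Cre; whether the wild type mice carried Cre or a floxed allele is not stated. No treatment is named in the labels used here, and the letter N in every title is not explained.

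Purine nucleotides are built on a ribose phosphate. Phosphoribosyl pyrophosphate (PRPP) enters at the step catalysed by Ppat, and the enzymes Gart, Pfas, Paics, Adsl and Atic then complete the ring to give inosine monophosphate (IMP). From IMP, Adss forms adenylosuccinate, which Adsl cleaves to AMP, while Impdh1 and Impdh2 lead through xanthosine monophosphate to GMP, made by Gmps. Cells can also recover free bases through salvage enzymes such as Hprt and Aprt. Adss is the broadly expressed form of adenylosuccinate synthetase (Adss2 in newer annotation), and Adssl1 (Adss1) is the form known from muscle.

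The gene that set the choice, Adss (ENSMUSG00000015961), lies on the minus strand of chromosome 1 (mm10, 177762962 to 177796511), is protein coding and has 13 exon blocks. Its isozyme Adssl1 (ENSMUSG00000011148) lies on the plus strand of chromosome 12 (mm10, 112620045 to 112641360). Because these genes catalyse the same reaction and their levels are compared below, the 250 bases before each start are shown from RefSeq (GRCm38.p6), 5′ to 3′ on the gene's strand, at chr1:177796510-177796759 for Adss and chr12:112619797-112620046 for Adssl1. Capitals mark matches to the GC box (GGGCGG, searched on both strands, so that CCGCCC counts as a match and matches may overlap).
Adss: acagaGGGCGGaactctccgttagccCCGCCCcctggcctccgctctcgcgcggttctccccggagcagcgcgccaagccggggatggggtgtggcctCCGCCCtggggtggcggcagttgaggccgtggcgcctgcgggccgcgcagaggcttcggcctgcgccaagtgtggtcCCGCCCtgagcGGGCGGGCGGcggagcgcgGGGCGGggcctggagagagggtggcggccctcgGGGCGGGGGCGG
Adssl1: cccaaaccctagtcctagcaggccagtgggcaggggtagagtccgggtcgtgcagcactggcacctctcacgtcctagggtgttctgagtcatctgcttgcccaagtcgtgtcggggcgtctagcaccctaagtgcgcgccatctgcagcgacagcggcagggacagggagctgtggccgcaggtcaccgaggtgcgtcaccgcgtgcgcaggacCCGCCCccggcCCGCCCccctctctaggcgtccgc
The Adss stretch held 9 GC boxes and had a GC content of 78.8%, and that of Adssl1 held 2 and had 68.4%. The median GC content over all windows was 52.4%. Of 32851 RefSeq windows, each running from 250 bases before to 50 bases after a start, 41 (0.125%) held at least 9 GC boxes, and among the other purine synthesis genes with a window the most was 4.

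RefSeq windows were found for 9 of the 10 genes, and Impdh1 had 2, giving 10 windows. The E-box CACGTG was present in 3 of them (Atic, Paics and Impdh2), compared with 7.15% of all windows. A GC box was present in 10 of 10, compared with 35.7%. The NRF1 core GCGCATGC was present in 1 (Ppat), compared with 2.71%. CCAAT was present in 4, compared with 37.4%, and TATAAA in 2, compared with 13.6%. The amino acid response element TGATGNAAT, searched like the others on both strands, was present in 0 of 10, compared with 0.965%. These are matches of letters in the reference sequence, and binding was not measured.

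Levels are in normalized counts per M (M for mega), the authors' normalized counts divided by 1 constant. The deposited column totals lay between 6.94 and 7.43 M, and the lowest values put the depth at approximately 7.69 to 13.2 M reads per library. About 364 to 834 reads stood behind Adss in a library and about 56 to 141 behind Impdh1, the least expressed of the 10 by count. Summed markers of alveolar type II cells were at 184444 to 220531 per M in wild type and 183824 to 211483 in knockout, and 10 of 10 of these markers passed the filter on low values. Club cell markers summed to 4549 to 9039 per M in wild type and 4800 to 8857 in knockout, markers of alveolar type I cells to 2274 to 2889 and 2271 to 2651, and ciliated cell markers to 160 to 274 and 163 to 227. Summed macrophage and monocyte markers were at 19.0 to 25.5 per M in wild type and 17.9 to 32.8 in knockout, endothelial markers at 5.34 to 12.6 and 7.41 to 11.5, fibroblast and smooth muscle markers at 4.05 to 8.28 and 0.99 to 6.41, and lymphocyte markers at no more than 0.297.

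A pair of libraries went against their labels at Rbck1. The library labelled wild type 2 had 29.7 per M, whereas wild type 3 to 6 had 56.7, 57.8, 56.1 and 56.6. The library labelled knockout 1 had 59.3 per M, whereas knockout 2 to 5 had 29.8, 36.4, 38.0 and 38.8. The difference between knockout and wild type is therefore given for all 10 libraries as labelled and again for the 8 libraries without this pair, a choice made with these values known. By Xist and Ddx3y, wild type 2, knockout 2 and knockout 3 were female and the other 7 libraries male.

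Adss stood lower in 4 of the 5 knockout libraries than in every wild type library. In wild type 2 to 6 its level was 55.1, 58.2, 60.3, 63.8 and 62.3 per M, a coefficient of variation of 5.67%. In knockout 1 to 5 it was 63.5, 39.9, 38.8, 38.3 and 41.9 per M. The library labelled knockout 1 lay at the wild type level, as it did for Rbck1. The library labelled wild type 2 was the lowest of its group for Adss but stayed above knockout 2 to 5, whereas its Rbck1 was at the level of those libraries. The female libraries were at 55.1 (wild type 2), 39.9 and 38.8 (knockout 2 and 3), and the male knockout libraries 4 and 5 were at 38.3 and 41.9.

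With all 10 libraries, the mean of Adss was 59.9 ± 3.40 in wild type against 44.5 ± 10.7 in knockout (SD, n = 5 each), 74.2% of the wild type level. The difference, knockout minus wild type on the log2(value per M + 0.5) scale used throughout, was -0.45 ± 0.11 (SE; 95% interval -0.70 to -0.21). In the 8 libraries wild type averaged 61.1 ± 2.42 and knockout 39.7 ± 1.59 (SD, n = 4 each), 65.0% of wild type, and the difference was -0.62 ± 0.08 (SE; 95% interval -0.78 to -0.45). Among these 8 the groups did not overlap, with 58.2 to 63.8 in wild type and 38.3 to 41.9 in knockout. Of all genes tested, 2.87% were likewise lower in every knockout library of the 8. Within the first run of mouse numbers as labelled the difference was -0.29, and within the second, which holds neither library of the pair, it was -0.63. In bulk samples, fewer cells of a type and less RNA per cell cannot be told apart. Summed fibroblast and smooth muscle markers, 3 of 5 of which were tested, were at 8.28, 6.06, 5.22, 4.05 and 6.94 per M in wild type 2 to 6 and at 6.41, 3.06, 0.99, 2.55 and 4.48 in knockout 1 to 5. None of the 5 was at 0 in every library and 0 were called with limma, and their part in the difference of Adss was not tested. Summed proliferation markers were at 53.2 to 115 per M in wild type and 58.1 to 80.7 in knockout.

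**Figure D1:**
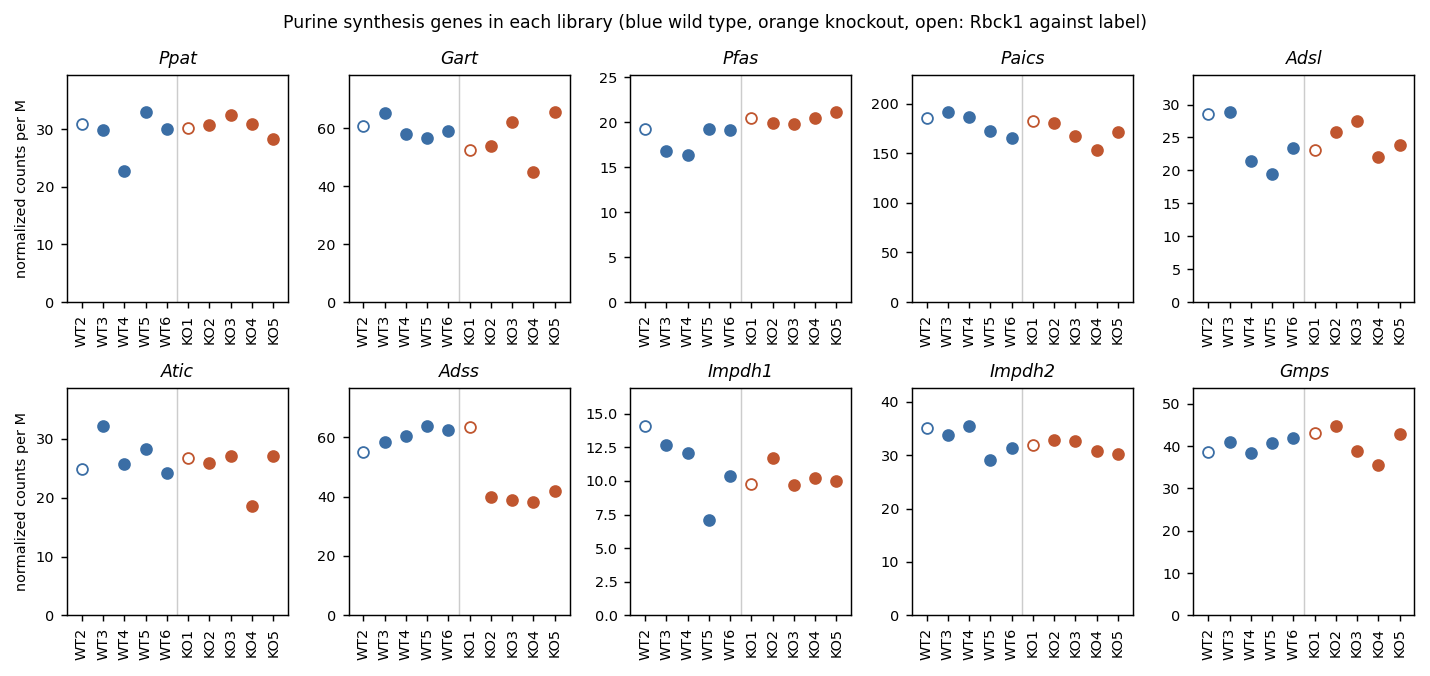
Normalized counts per M (vertical axes, each from 0) of the 10 purine synthesis genes in each library (WT, wild type; KO, knockout), 1 point per library; open circles are the pair of libraries whose Rbck1 went against the label. Adss is at 38.3 to 41.9 per M in knockout 2 to 5 and at 55.1 to 63.8 in the other 6 libraries, while the groups overlap for every other gene except Pfas.

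Adss was also set beside Rbck1 and a pair of genes chosen after their values were seen because they set these libraries apart. Nnt, a mitochondrial transhydrogenase, was at 74.5, 27.8, 22.2, 18.7 and 23.2 per M in wild type 2 to 6 and at 30.1, 74.8, 51.4, 74.2 and 66 in knockout 1 to 5. Wdfy1 was at 50.0, 8.95, 10.1, 15.1 and 13.5 per M in wild type 2 to 6 and at 11.9, 95.9, 107, 91.2 and 86.8 in knockout 1 to 5. The library labelled knockout 1 lay with wild type 3 to 6 for Adss, Rbck1 and Wdfy1, and close above them for Nnt. The library labelled wild type 2 lay with knockout 2 to 5 for Rbck1 and Nnt, between the sets for Wdfy1, and nearer to wild type 3 to 6 for Adss. Apart from wild type 2, the libraries thus fell into the same sets for Nnt and Wdfy1 as for Adss. Nothing is read from this, because the pair of genes was chosen for setting these libraries apart. Their part in the difference of Adss was not tested.

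**Figure D2:**
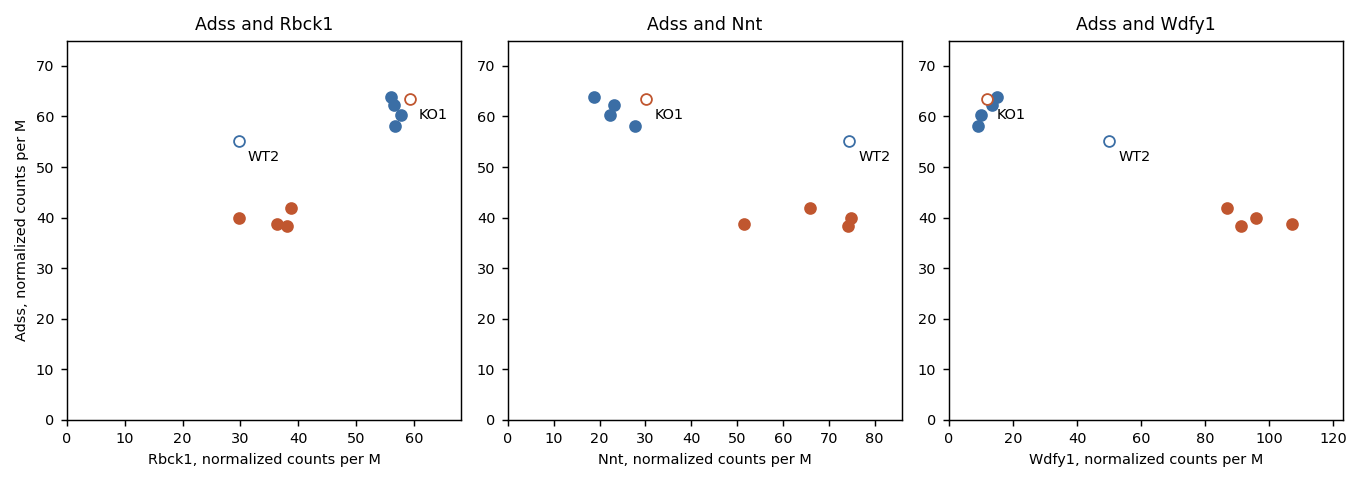
Adss (vertical axis, normalized counts per M) against Rbck1, Nnt and Wdfy1 (horizontal axes, normalized counts per M), 1 point per library; blue is wild type, orange is knockout, and open circles are the libraries labelled wild type 2 (WT2) and knockout 1 (KO1). KO1 lies beside the blue points in every panel, whereas WT2 has an Adss level of 55.1, between the orange points and the other blue ones.

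The isozyme Adssl1 was at 89.4, 113, 144, 103 and 130 per M in wild type 2 to 6 and at 117, 109, 106, 95 and 107 in knockout 1 to 5. The groups overlapped. Over the 10 libraries wild type averaged 116 ± 21.4 and knockout 107 ± 7.92 (SD, n = 5 each), a difference of -0.10 ± 0.10 (SE; limma adjusted p = 0.789). In the 8 libraries wild type averaged 122 ± 18.0 and knockout 104 ± 6.24 (SD, n = 4 each), and the difference of -0.22 ± 0.09 (SE) did not pass with limma (adjusted p = 0.329). Per kb of transcript, Adss made up 28.3%, 24.9%, 21.2%, 28.4% and 23.5% of the sum of both isozymes in wild type 2 to 6. In knockout 1 to 5 the share was 25.8%, 19.1%, 19.1%, 20.5% and 20.0%. Adssl1 thus gave the larger part of this sum in every library, and the share of Adss was lowest in knockout 2 to 5. The sum itself was 86.8 ± 12.6 per M per kb in wild type against 76.1 ± 7.86 in knockout over the 10 libraries (SD, n = 5 each). Over the 8 it was 90.9 ± 9.94 against 73.0 ± 3.91 (SD, n = 4 each).

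The step before and the steps after IMP gave a way to compare Adss with other genes inside a library, where scaling cancels. The ratio of Adss to Gmps, the last enzyme of the GMP branch, was 4.17, 4.17, 4.59, 4.58 and 4.35 in wild type 2 to 6 (levels per kb). In knockout 1 to 5 it was 4.31, 2.6, 2.92, 3.1 and 2.85, so knockout 2 to 5 lay below the other 6 libraries. The ratio of Adss to Impdh2 was 1.05 to 1.47 in wild type and 0.795 to 0.929 in knockout 2 to 5, with 1.34 in knockout 1. The ratio of Adss to Adsl, the next enzyme towards AMP, was 2.58 to 4.39 in wild type and 1.89 to 2.35 in knockout 2 to 5, with 3.68 in knockout 1. These ratios carry the Adss values on which the gene was selected and are descriptions.

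**Figure D3:**
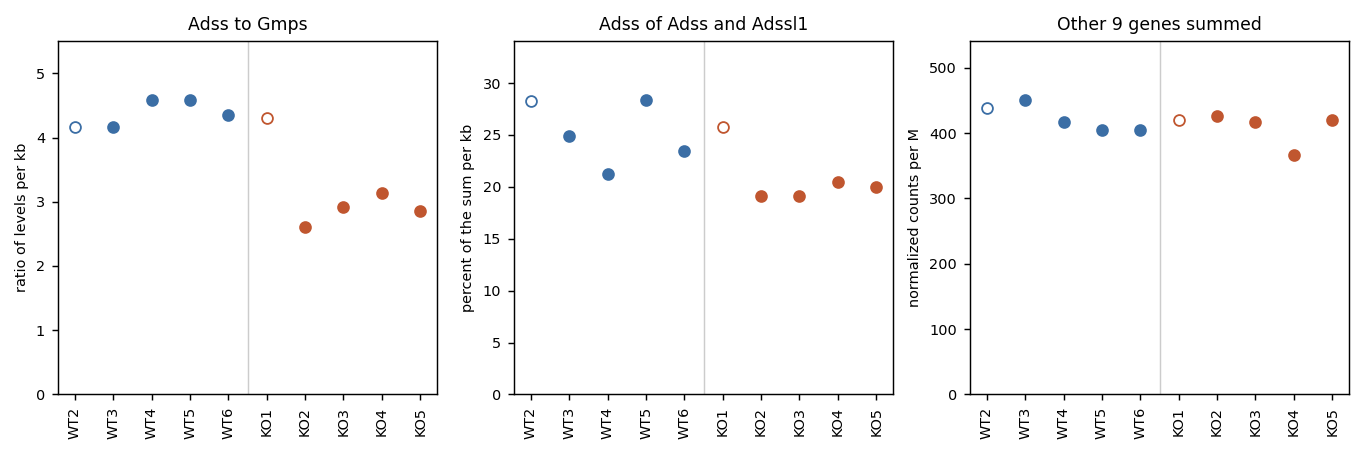
Left, ratio of Adss to Gmps levels per kb; middle, Adss as a percentage of Adss plus Adssl1 per kb; right, the other 9 purine synthesis genes summed in normalized counts per M; each point is 1 library and open circles are knockout 1 and wild type 2. The ratio is 2.6 to 3.1 in knockout 2 to 5 and 4.17 to 4.59 in the other 6 libraries, while the sum of the other 9 genes overlaps between the groups.

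Among the genes of the steps that lead to IMP, the groups overlapped for all but Pfas. Ppat, the amidophosphoribosyltransferase of the committed step, was at 30.9, 29.9, 22.7, 32.9 and 30.1 per M in wild type 2 to 6 and at 30.2, 30.7, 32.5, 30.9 and 28.3 in knockout 1 to 5. Wild type 4 was the low library, and the groups overlapped, with means of 29.3 ± 3.87 and 30.5 ± 1.53 (SD, n = 5 each). Gart, a multifunctional enzyme that includes the glycinamide ribonucleotide transformylase, was at 60.6, 65.1, 58.1, 56.7 and 59.1 per M in wild type and 52.6, 54.0, 62.2, 44.7 and 65.4 in knockout. Its knockout values spread around the wild type range, with knockout 4 lowest and knockout 5 highest.

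Pfas, the formylglycinamidine ribonucleotide synthase, was higher in every knockout library than in every wild type library. It was at 19.3, 16.8, 16.4, 19.3 and 19.1 per M in wild type 2 to 6 and at 20.5, 19.9, 19.8, 20.5 and 21.1 in knockout 1 to 5. The means were 18.2 ± 1.45 and 20.4 ± 0.543 (SD, n = 5 each), and the difference of 0.16 ± 0.09 (SE; 95% interval -0.02 to 0.35) did not pass with limma (adjusted p = 0.583). In the 8 libraries it was 0.18 ± 0.10 (SE; limma adjusted p = 0.46). Groups that did not overlap, in either direction, were found for 1.59% of all genes tested in the 10 libraries and for 6.71% in the 8, and among the 10 purine synthesis genes for 1 (Pfas) and 2 (Adss and Pfas). The separation of Pfas includes the library labelled knockout 1 on the knockout side and wild type 2 on the wild type side. For Adss, only wild type 2 of this pair lay on the side of its label, and for Rbck1 neither did.

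Paics, which carries out the carboxylation and the succinocarboxamide step, had the highest level of the set. It was at 185, 191, 186, 172 and 165 per M in wild type 2 to 6 and at 182, 180, 167, 153 and 171 in knockout 1 to 5, with overlapping groups. Adsl, which cleaves succinyl intermediates both before IMP and on the way to AMP, was at 28.6, 28.8, 21.4, 19.5 and 23.4 per M in wild type and 23.1, 25.9, 27.5, 22.1 and 23.9 in knockout. All knockout values of Adsl lay inside the wild type range. Atic, which closes the ring to IMP, was at 24.9, 32.2, 25.7, 28.3 and 24.2 per M in wild type and 26.8, 25.9, 27.1, 18.5 and 27.1 in knockout, where knockout 4 alone lay below the wild type range.

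In the GMP branch, the IMP dehydrogenases Impdh1 and Impdh2 and the GMP synthetase Gmps also overlapped between the groups. Impdh1 was at 14.1, 12.7, 12.1, 7.09 and 10.4 per M in wild type 2 to 6 and at 9.8, 11.7, 9.71, 10.2 and 9.96 in knockout 1 to 5. Impdh2 was at 35.1, 33.8, 35.5, 29.0 and 31.3 per M in wild type and 31.9, 32.8, 32.7, 30.7 and 30.2 in knockout. Wild type 5 was the lowest library for both. Impdh2 made up 77.7% to 85.1% of the summed dehydrogenases per kb in wild type and 79.7% to 82.5% in knockout. Gmps was at 38.7, 40.9, 38.4, 40.8 and 41.9 per M in wild type and 43.1, 44.8, 38.9, 35.6 and 42.9 in knockout, with a difference of 0.03 in the 10 libraries (95% interval -0.14 to 0.19).

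Over all 10 libraries limma called 0 of the 10 purine synthesis genes (Benjamini-Hochberg adjusted p under 0.05 over 12946 genes), where 0% of all genes were called. An unadjusted p under 0.05 was reached by 1227 genes, among them 1 of the 10, which was Adss. In the 8 libraries 52 genes were called in either direction (0.402%), and 15 were lower in knockout (0.116%). The only purine synthesis gene among them was again Adss, which was selected on this contrast, so nothing is read from either count. Without Adss, 4 of the other 9 differences were above 0 and 5 below, both in the 10 libraries (-0.11 to 0.16) and in the 8 (-0.17 to 0.18). The median over all 10 genes was -0.06 beside 0.01 for all genes tested in the 10 libraries, and -0.02 beside 0.00 in the 8.

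For each of the other 9 genes the 95% interval lay within a 1.5-fold change either way. The lowest bound was -0.42 and the highest 0.35 in the 10 libraries, and -0.44 and 0.40 in the 8. Summed, these 9 genes were at 438, 451, 417, 405 and 405 per M in wild type 2 to 6 and at 420, 426, 417, 367 and 420 in knockout 1 to 5. Knockout 4 had the lowest sum and was the lowest library for 5 of the 10 genes (Adss, Gart, Paics, Atic and Gmps), while wild type 5 was lowest for 3 and wild type 4 for 2.

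**Figure D4:**
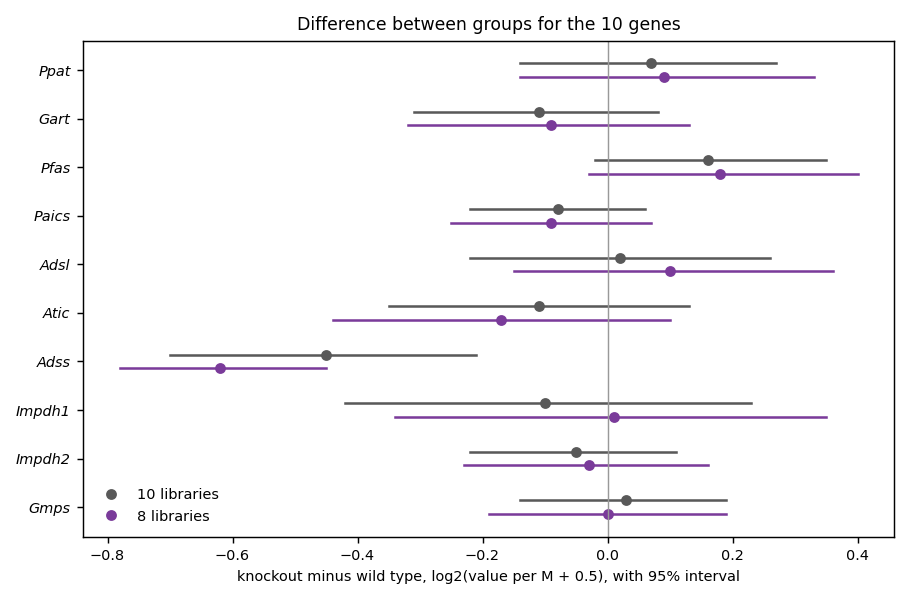
Difference between knockout and wild type on the log2(value per M + 0.5) scale (horizontal axis) for the 10 genes, in pathway order from the top; points are limma estimates and bars are 95% intervals, grey for the 10 libraries and purple for the 8. The bars of Adss run from -0.70 to -0.21 and from -0.78 to -0.45, and those of the other 9 genes include 0.

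The mouse numbers also allowed a comparison that had no part in choosing the genes. The labels do not call the number runs batches. Knockout 1 to 3 and wild type 2 and 3 made up the first run, and knockout 4 and 5 with wild type 4 to 6 the second. With genotype as a covariate, 0 of the 10 genes were called between the runs with limma, where 81 of all genes (0.626%) were, and at an unadjusted p under 0.05 there was 1 of the 10 beside 2041 of all genes. Of the 10 differences, 9 were below 0 (lower in the second run), with a median of -0.10 beside -0.00 for all genes. The 1 gene was Adsl, at 26.8 ± 2.37 per M in the first run and 22.0 ± 1.76 in the second (SD, n = 5 each), a difference of -0.28 ± 0.09 (SE) that did not pass (limma adjusted p = 0.164). Adss differed by -0.04 ± 0.12 (SE; 95% interval -0.28 to 0.21) between the runs, by -0.26 with sex as a covariate, and by 0.08 without knockout 1, 0.05 without knockout 1 and wild type 2, and 0.03 without knockout 4. Markers of other kinds were also compared between the runs. All 6 proliferation markers were below 0 (median -0.53, 0 called), and their sum was 115, 89.8, 76.1, 64.7 and 78.4 per M in wild type 2 and 3 and knockout 1 to 3 and 78.9, 53.2, 62.6, 58.1 and 80.7 in wild type 4 to 6 and knockout 4 and 5. All 4 ciliated cell markers were above 0 (median 0.47), with Foxj1 and Tppp3 called higher in the second run. Of the 3 macrophage and monocyte markers tested, 2 were below 0 and 1 above (-2.04 to 0.20). Mrc1 alone of these was called, lower in the second run. Their part in the differences of the purine synthesis genes between the runs was not tested. A difference in the genotype effect between the runs was called with limma for 0 of the 10 genes, of which 0 reached an unadjusted p under 0.05. The share over all genes tested is not given for this comparison. The pair of libraries against their labels at Rbck1 also falls wholly in the first run, and its part cannot be told apart here. For these reasons nothing is read from these counts.

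Levels between genes were compared per kb of the principal transcript (GENCODE M21). Paics led with a mean of 70.6 per M per kb over the 10 libraries, followed by Adssl1 with 62.6. Adss came next with 18.8, then Impdh2 with 17.4 and Gart with 16.4. Below them stood Atic with 9.16, Ppat with 7.51, Adsl with 6.58, Gmps with 5.01, Impdh1 with 4.15 and Pfas with 3.02. The ranges over libraries of neighbours in this order overlapped, except between Adssl1 and Adss and between Gart and Atic. With the length of all exons joined in place of the principal transcript, Paics, Adssl1, Adss, Adsl and Pfas kept their rank. Gart passed Impdh2, and Atic moved from rank 6 to rank 10.

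**Figure D5:**
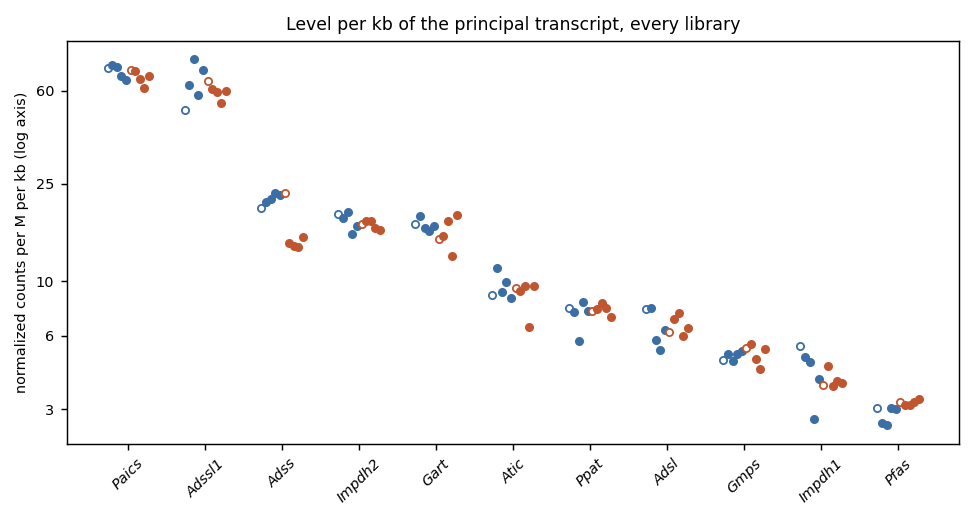
Normalized counts per M per kb of the principal transcript (vertical log axis) for the 10 genes and the isozyme Adssl1, 1 point per library; blue is wild type, orange is knockout, and open circles are the libraries labelled wild type 2 and knockout 1. Paics and Adssl1 lie above 50 and the other genes below 24. The Adss points of knockout 2 to 5 lie below those of the other 6 libraries, and the Pfas points of the knockout group all lie above those of wild type.

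Some of these genes share sequence with neighbours, and the strand setting of the counting is not given in the sources used here. Ppat and Paics lie head to head on chromosome 5 (mm10), with 5′ ends at 76951578 on the minus strand and 76951307 on the plus strand, and their exons overlap by 272 bases (6.152% of the Ppat exons and 8.665% of those of Paics). Despite this arrangement the level of Paics per kb was 8.38 to 13.2 times that of Ppat in wild type and 7.98 to 9.68 times in knockout. Of the Gart exons, 19.7% overlap the antisense gene Gm15964. Unless strand was used in counting, reads there cannot be assigned to either gene by position alone.

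Across the 10 libraries the genes did not vary as a single group. Pearson's r of log2 values between Adss and each of the other 9 ran from -0.50 to 0.50. Among the other 9, the 36 pairs ran from -0.62 to 0.87 and 22 were positive; the highest were Impdh1 with Impdh2 (0.87) and Gart with Atic (0.78). The 5 genes most like Adss, among the 10172 genes that averaged 5 per M or more, were Smim19 (r = 0.96), Rell1 (0.95), B230118H07Rik (0.94), Cd36 (0.94) and Ptp4a2 (0.93). For Adss this likeness is largely that between 2 levels, 4 knockout libraries against the other 6, and the libraries share depth and scaling. Rell1, for example, was at 22.4 to 28.2 per M in wild type and 13.8 to 16.0 in knockout 2 to 5, with 29.8 in knockout 1. The 5 most like the mean of the other 9 genes (each scaled to unit spread) were Lman1 (0.96), Dhdds, Pphln1, Derl1 and Bnipl (0.93 each).

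On chromosome 1, within 500 kb of the Adss start, 3 genes were tested and 0 were called with limma in the 8 libraries. Zbtb18, a transcriptional repressor, differed by -0.02 ± 0.11 (SE), Catspere2 by 0.22 ± 0.14 and Desi2 by 0.07 ± 0.12. These differences were -0.03, 0.21 and 0.12 in the 10 libraries.

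Genes that feed, recycle or use purines were taken from 9 lists with 98 symbols, of which 92 were in the table and 87 were tested. In each of the 3 comparisons limma called 0 of the 87. At an unadjusted limma p under 0.05 there were 8 of the 87 in the 10 libraries, 12 in the 8 and 19 between the runs. Among all 12946 genes tested there were 1227, 1695 and 2041. In the 10 libraries 61 of the 87 (70.1%) were below 0 in knockout, beside 48.7% of all genes tested, and their median was -0.07. In the 8 libraries it was 58 (66.7%), beside 49.9%, with a median of -0.04. Between the runs 58 (66.7%) were likewise below 0, here lower in the second run, beside 51.0%, with a median of -0.08. None of these counts is a test of the lists.

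Among the PRPP supply genes, 10 of 11 were below 0 in the 10 libraries and 11 of 11 in the 8, with medians of -0.07 and -0.09 and 0 called. Of the PRPP synthetases, Prps1 was at 33.2 ± 1.98 in wild type and 30.0 ± 2.33 in knockout in the 8 libraries (SD, n = 4 each), and Prps2 differed by -0.02. With all 10, Prps1 differed by -0.05 and Prps2 by 0.03, so the sign of Prps2 turned. All 6 salvage genes tested were below 0 in both sets, with medians of -0.15 and -0.17, and 0 were called. Hprt, which recovers hypoxanthine and guanine, was at 59.8 ± 5.61 and 52.6 ± 3.58, Aprt, which recovers adenine, at 25.9 ± 3.34 and 23.8 ± 2.88, and the adenosine kinase Adk at 207 ± 9.16 and 196 ± 10.2 (SD, n = 4 each). None of the 3 passed with limma, and in the 10 libraries Hprt differed by -0.17, Aprt by -0.13 and Adk by -0.06.

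In the purine nucleotide cycle, which returns AMP to IMP and to which Adss and Adsl belong, the deaminase Ampd2 was at 15.2 ± 3.66 and 16.8 ± 1.95 and Ampd3 at 3.57 ± 1.65 and 5.48 ± 1.93 in the 8 libraries (SD, n = 4 each). The GMP reductases Gmpr and Gmpr2 differed by -0.20 and 0.09. In the 10 libraries the differences were 0.02 for Ampd2, 0.29 for Ampd3, -0.17 for Gmpr and -0.05 for Gmpr2. Of the folate and serine genes, which supply formyl groups to Gart and Atic, 9 of 18 were below 0 in the 8 libraries and 11 of 18 in the 10, and Mthfd1 was at 303 ± 26.2 and 317 ± 5.96 in the 8 (SD, n = 4 each), a difference of 0.07, and differed by 0.03 in the 10. Of the breakdown genes, Xdh (xanthine dehydrogenase) was in the 8 libraries at 213 ± 14.5 and 247 ± 29.9, a difference of 0.20 ± 0.09 (SE; limma adjusted p = 0.327), and Nt5e differed by -0.14. In the 10 libraries Xdh differed by 0.14 and Nt5e by -0.13. Cad, which opens pyrimidine synthesis, differed by 0.16 and Myc and Atf4, transcription factors known to act on the pathway, by -0.15 and -0.00. Over all 10, Cad differed by 0.09, Myc by -0.32 and Atf4 by 0.01. Closest to the threshold in the 8 libraries was Samhd1, a deoxynucleotide hydrolase chosen after its values were seen, at 42.2 ± 3.5 and 55.5 ± 5.48 (SD, n = 4 each; limma adjusted p = 0.0842), a difference of 0.39. Its difference in the 10 libraries was 0.20 (limma adjusted p = 0.624).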

How the data were processed

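Messenger RNA of sorted alveolar type II cells was sequenced on a NextSeq 500 from polyA libraries made with NEBNext Ultra, per the labels' protocols. The authors deposited 1 table of normalized counts, a signal that is not whole-numbered; how reads were aligned, whether strand was used and how counts were scaled is not stated in the sources used here. Names found without a role in the submitters' processing notes are mm10, bcl2fastq 2.17 and edgeR 3.14.0. Whole reads were not recovered, so no count test was run. Values were divided by 7.14 M, the mean column total. Symbols, coordinates and lengths came from GENCODE M21 (16026 of 16154 IDs matched).

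Genes had to reach 1 per M in 5 or more libraries. The test was limma-trend (limma 3.58.1, R 4.3.3), two-sided, on log2(value per M + 0.5), knockout minus wild type, with Benjamini-Hochberg adjustment over 12946 genes and a threshold of 0.05; a pseudocount understates the change of low genes. The comparison of runs had genotype as a covariate. The tests were checked on simulated data. The simulated noise was normal and independent between libraries, with an SD set by the level alone. Sex, runs and libraries against their labels were not simulated, so the recovery need not hold for the real libraries. In the simulated 10 libraries, 73.1% of 1.5-fold changes and 100% of 2-fold and 4-fold changes were recovered, and 16 of 198 calls were false. In the simulated 8 libraries, 77.6% and 100% were recovered, and 5 of 190 calls were false. Python 3.11.15, pandas 2.3.3 and matplotlib 3.10.9 made tables and figures.

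Named genes are the 10 genes, Rbck1, listed genes of related pathways, genes within 500 kb of Adss and the 5 most alike; others are said to be chosen after their values were seen. The members and lists were chosen with earlier results of these data known. Alternatives were other pseudocounts, filters and scalings, run, sex or replicate number as a term, each run alone, and leaving out each library. Listed symbols not found in the table were not analysed here.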

Additional observations from a re-analysis of the deposited data

Results flagged for a closer look

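In groups of 5 libraries, a library was singled out where its gap to the nearest other, divided by the range of the group, passed Dixon's 95% critical value. Of 22 groups examined (the 10 genes and Adssl1 in wild type and in knockout), 4 held such a library, where chance gives about 1 in 20. Adss was at 63.5 per M in knockout 1, the library whose Rbck1 also went against its label, beside 38.3 to 41.9 in the other knockout libraries. Ppat was at 22.7 per M in wild type 4, beside 29.9 to 32.9 in the other wild type libraries. Atic was at 18.5 per M in knockout 4, beside 25.9 to 27.1. Impdh1 was at 11.7 per M in knockout 2, beside 9.71 to 10.2.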

How the results depend on the processing

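Adss kept its direction in all 21 alternatives for the 10 libraries (-0.63 to -0.29) and all 16 for the 8 (-0.64 to -0.58), whereas its difference between the runs, -0.04, ran from -0.26 to 0.08. The count of called purine synthesis genes in the 10 libraries was 0, and 0 to 1 when each library was left out, with Adss called without knockout 1. It was 1 with the second run alone and 1 with the replicate block, again Adss. Because Adss was selected on this contrast, nothing is read from these counts. The replicate block took in replicates 2 to 5 alone, which leaves out knockout 1 and wild type 6. The numbers do not pair the samples: the correlation of same-numbered deviations was 0.31, 0.03, 0.10 and 0.08 for replicates 2 to 5. With this block on those libraries, all genes called were 259 in place of 0, and related genes 1 (Cmpk1) in place of 0. The change of libraries and the block term cannot be told apart here. In the 10 libraries all genes called were also 1 with run as a covariate, 41 in the second run alone and 0 to 4 when each library was left out. In the 8 libraries the count of 52 became 4 without a filter, 27 with sex as a covariate and 19 (without wild type 5) to 100 (without wild type 6) when each library was left out, and related genes 0 to 1 (Cmpk1 without wild type 6, Samhd1 without knockout 4). Between the runs 81 became 28 without the pair of libraries against their labels, 44 with sex as a covariate and 18 (without wild type 2) to 139 (without knockout 1), and related genes 0 to 1 (Atf4 without knockout 3, Phgdh without knockout 5). The cause of these shifts was not tested. Other scalings moved the median of all genes by no more than 0.0369. Impdh1, with about 56 to 141 reads, is the least precise of the 10 genes.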
